A study of Mus musculus with 47 samples.

Results

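Chromatin immunoprecipitation with sequencing of PHF10 in control NMuMG cells gave 28011 peaks after 24 h of TGFβ1, and 14103 of them (50.3%, 95% interval 49.8 to 50.9) overlapped no PHF10 peak of untreated cells. These peaks are called early gains here. An early gain was a peak of the 24 h list that shared not a single base with a peak of either 0 h list, on chromosomes 1 to 19, X and Y. The other 24 h peaks comprised 8567 found in both 0 h replicates, called kept peaks, 4360 found in 0 h replicate 2 only and 981 found in 0 h replicate 1 only. NMuMG is a line of mouse mammary epithelial cells widely used to study the epithelial to mesenchymal transition (EMT), which TGFβ1 starts in them. Cells of the 24 h group were labelled control genotype and received 5 ng/ml TGFβ1 for 24 h (1 library). Cells of the 0 h group carried the same label and no treatment (2 libraries). Control cells given TGFβ1 for 48 h (2 libraries) served to follow the gains, and untreated Pbrm1 knockout (KO) cells (1 library) gave a further PHF10 list. All of these libraries came from the same line, crosslinking scheme and Phf10 antibody. The library names of control cells begin with sgCt, and the sources used here do not say how many clones either genotype holds or whether replicates came from separate cultures. The whole series holds 47 samples and 806216 peaks in 32 lists.

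PHF10 is a PHD finger subunit of PBAF, the form of the SWI/SNF chromatin remodeller that also holds PBRM1, a protein with several bromodomains, which are folds that bind acetylated lysine. BRG1, encoded by Smarca4, is the ATPase that drives SWI/SNF remodelling of nucleosomes. PBAF is found mainly at promoters and also at enhancers. TGFβ1 signals through receptor kinases and SMAD transcription factors, and in epithelial cells it lowers the expression of junction genes and raises that of matrix and cytoskeletal genes.

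With 1 library at 24 h the change since 0 h could not be tested. Shares below carry exact Clopper-Pearson intervals at 95%, which cover counting error only and hold no spread between libraries. A peak that is not called is a site below the caller's threshold, not a site without PHF10. Read depth was unknown, so list lengths could not be put on one scale. The lists held 11285 and 14731 peaks at 0 h, 28011 at 24 h, and 43549 and 102434 at 48 h.

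Promoter sequences are shown for the gains that reached a promoter, a minority of all gains. The sequences of the other gains were not examined here, so base composition and motifs below describe promoter gains only. RefSeq promoter windows of GRCm38.p6, each running 250 bases before to 50 after a transcription start, were overlapped by 1362 early gains at 1640 windows of 1495 genes. The sequences of 6 of them are given 5′ to 3′ on the strand of the gene. Sec61b, for a subunit of the protein translocation channel, and Krtap3-1, for a hair keratin-associated protein, had the strongest gains on any promoter window. Krt18, Itgb8, Col1a2 and Cldn1 stand for the epithelial, integrin and matrix genes described below. Capitals mark matches to the AP-1 motif TGANTCA or to the SMAD motif CAGACA on either strand, and Cldn1 had neither.
Sec61b: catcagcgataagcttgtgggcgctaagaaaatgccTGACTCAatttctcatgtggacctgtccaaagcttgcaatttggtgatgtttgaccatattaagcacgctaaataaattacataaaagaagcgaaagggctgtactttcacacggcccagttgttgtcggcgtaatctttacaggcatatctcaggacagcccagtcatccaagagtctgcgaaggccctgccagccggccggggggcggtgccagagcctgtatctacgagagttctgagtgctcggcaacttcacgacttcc
Krtap3-1: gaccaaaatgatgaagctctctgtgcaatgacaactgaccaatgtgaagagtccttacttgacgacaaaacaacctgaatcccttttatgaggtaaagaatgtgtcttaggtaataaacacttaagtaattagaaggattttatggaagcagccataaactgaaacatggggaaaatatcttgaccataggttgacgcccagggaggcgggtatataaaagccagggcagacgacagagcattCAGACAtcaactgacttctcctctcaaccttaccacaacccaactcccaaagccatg
Krt18: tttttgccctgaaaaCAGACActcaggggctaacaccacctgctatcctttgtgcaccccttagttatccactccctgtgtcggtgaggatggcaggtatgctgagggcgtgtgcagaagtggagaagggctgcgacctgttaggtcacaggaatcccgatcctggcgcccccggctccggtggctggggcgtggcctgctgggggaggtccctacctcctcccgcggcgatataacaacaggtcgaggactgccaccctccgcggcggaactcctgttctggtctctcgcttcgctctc
Itgb8: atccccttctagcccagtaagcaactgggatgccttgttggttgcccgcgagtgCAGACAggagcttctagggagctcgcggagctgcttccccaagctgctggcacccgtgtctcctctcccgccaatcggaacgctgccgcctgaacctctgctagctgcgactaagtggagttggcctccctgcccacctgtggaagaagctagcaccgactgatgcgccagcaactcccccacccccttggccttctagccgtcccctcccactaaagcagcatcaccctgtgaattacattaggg
Col1a2: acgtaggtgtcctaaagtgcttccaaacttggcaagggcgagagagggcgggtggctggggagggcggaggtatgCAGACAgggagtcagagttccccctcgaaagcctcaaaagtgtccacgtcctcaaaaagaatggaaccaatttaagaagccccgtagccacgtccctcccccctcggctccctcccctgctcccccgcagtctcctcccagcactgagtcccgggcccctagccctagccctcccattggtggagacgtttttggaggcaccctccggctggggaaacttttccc
Cldn1: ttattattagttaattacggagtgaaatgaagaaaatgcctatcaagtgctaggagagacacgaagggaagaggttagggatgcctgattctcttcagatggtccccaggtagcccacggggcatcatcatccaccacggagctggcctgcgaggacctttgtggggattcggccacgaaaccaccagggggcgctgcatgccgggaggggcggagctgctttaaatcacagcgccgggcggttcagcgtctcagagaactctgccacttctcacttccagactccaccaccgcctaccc
The windows lie at chr4:47474411-47474710 (plus strand, Sec61b), chr11:99566581-99566880 (minus, Krtap3-1), chr15:102027966-102028265 (plus, Krt18), chr12:119238227-119238526 (minus, Itgb8), chr6:4505368-4505667 (plus, Col1a2) and chr16:26371790-26372089 (minus, Cldn1). Their gains had folds over input, a ratio given by the authors' peak caller, of 8.24 at Sec61b, 8.12 at Krtap3-1, 4.19 at Krt18, 3.65 at Itgb8, 3.22 at Col1a2 and 3.01 at Cldn1. Each of these 6 gains was called again in both 48 h replicates. Untreated cells carried H3K4me3, a mark of promoters, under 4 of the 6, the exceptions being Krtap3-1 and Cldn1.

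Promoter windows under early gains were less rich in CpG than those under kept peaks. The median GC content was 59.7% under gains, 67.7% under kept peaks and 48.0% in windows with no 24 h peak. The median ratio of observed to expected CpG was 0.647 under gains, 0.856 under kept peaks and 0.224 with no peak. A ratio of at least 0.6 was found in 58.0% of gain windows (55.6 to 60.5) and in 89.9% of kept windows (89.2 to 90.6).

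The AP-1 motif TGANTCA was found in 4.45% of gain windows (3.51 to 5.56), 3.09% of kept windows (2.71 to 3.51) and 7.81% of all 32817 windows. The SMAD motif CAGACA was found in 16.8% of gain windows, 12.6% of kept windows and 21.0% of all windows. The TEAD motif GGAATG was found in 12.7%, 9.94% and 14.7% of the same 3 sets. The ETS motif CCGGAAG was found in 18.6% of gain windows (16.7 to 20.6), 14.5% of kept windows (13.7 to 15.4) and 8.86% of all windows. Both strands were searched, and no motif contains another. AP-1, SMAD and TEAD matches were thus less frequent under gains than over all windows, and ETS matches more frequent. These motifs vary with base composition, and the windows differ in it, so the part of base composition in these shares was not tested. Some genes gave several windows, with 1640 gain windows at 1495 genes and 7377 kept windows at 6415 genes. The intervals of window shares, for motifs and for CpG, count each window as independent and may be too narrow.

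Early gains were the weaker peaks of the 24 h list. Their median fold over input was 3.79, against 4.87 for kept peaks, and their median length was 294 bp, against 858 bp. The median −log10 q, the peak caller's significance after correction, was 3.23 for gains and 8.81 for kept peaks. Gains reached 10.7-fold at most, and the lowest had 1.77-fold. When the 24 h peaks were ranked by −log10 q, gains made up 11 of the first 1000 (1.10%), 5.10% of the first 5000, 47.0% of ranks 10001 to 15000 and 93.8% of the last 3011. The lowest peak of the 24 h list had a q of 0.0983. Gains thus became more frequent as significance at 24 h decreased.

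**Figure D1:**
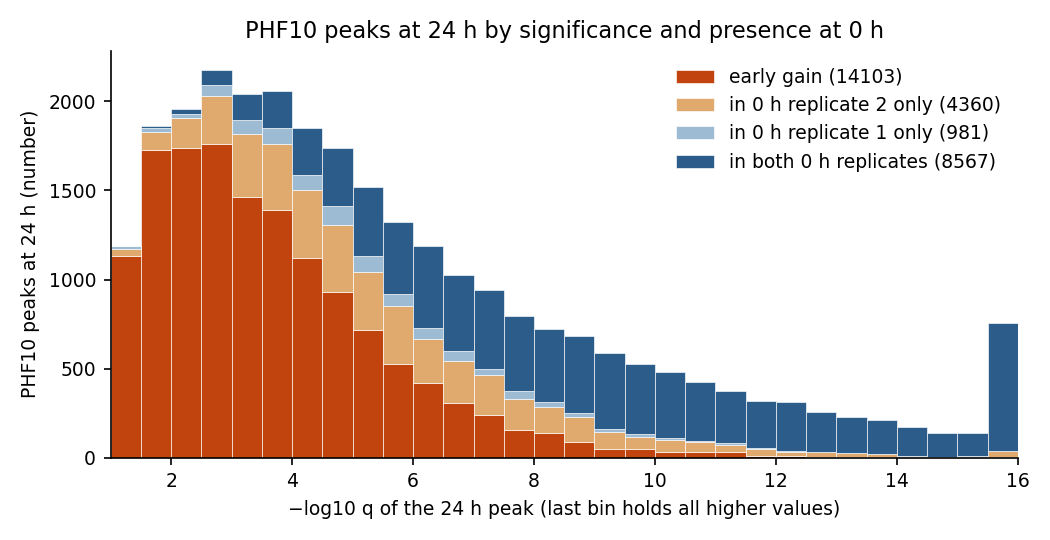
The bars count the 28011 PHF10 peaks at 24 h by −log10 q, in bins, with all higher values in the last bin, and colours give their presence at 0 h. Early gains (14103) fill most of the low bins, and kept peaks (8567) fill most of the high ones.

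The 24 h list was also longer than the 0 h lists, and its difference from them shrank when lengths were made equal. In whole lists, 65.9% of 24 h peaks were absent from 0 h replicate 1 and 53.9% from 0 h replicate 2, while 23.3% of replicate 1 peaks were absent from replicate 2 and 41.2% of replicate 2 peaks from replicate 1. After each list was reduced to its 11285 most significant peaks, 34.5% of 24 h peaks were absent from 0 h replicate 1 (33.6 to 35.4) and 27.6% from replicate 2 (26.8 to 28.5). The untreated replicates then lacked 31.0% (30.2 to 31.9) and 31.1% (30.2 to 31.9) of each other's peaks. At equal length the 24 h list thus differed from the untreated lists about as much as the untreated lists differed from each other. Gains numbered 2321 (20.6%) in that setting.

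Few gains sat at the edge of the rule. The smallest gap between a gain and a 0 h peak was 16 bp, 3 gains lay within 200 bp of one, and 151 (1.07%) lay within 1000 bp. The median gap was 27741 bp. On the other side, 11 of the 13908 other 24 h peaks overlapped a 0 h peak by 50 bp or less, with a median fold of 3.20, and gains within 1000 bp of a 0 h peak had a median fold of 3.71.

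Early gains lay mostly away from gene ends, whereas kept peaks lay mostly at them. The distance to the nearest end of a protein-coding gene had a median of 10841 bp for gains and 380 bp for kept peaks. No more than 2 kb from a gene end were 3299 gains (23.4%, 22.7 to 24.1) and 6746 kept peaks (78.7%). A further 41.7% of gains lay inside a gene more than 2 kb from its ends, against 15.8% of kept peaks, and 34.9% lay outside genes, against 5.46%. More than 100 kb from any gene end were 15.4% of gains and 1.63% of kept peaks. Near the transcription starts of the promoter table, within 2 kb, were 16.2% of gains and 69.5% of kept peaks. Gene ends include the far end of each gene and miss transcription starts inside a gene, so nearness to a gene end is not nearness to a start. With −log10 q of at least 5 in every PHF10 list, where 24 h peaks over weaker 0 h peaks also count as gains, 46.8% of the then 5446 gains lay within 2 kb of a gene end.

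**Figure D2:**
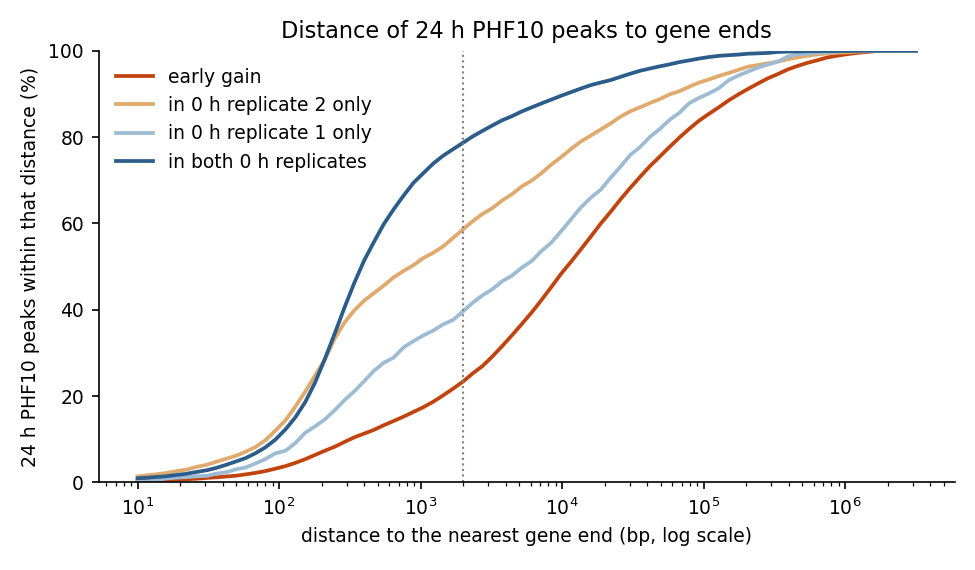
Each curve gives the percent of 24 h PHF10 peaks of 1 class (vertical axis) within a distance of the nearest gene end in bp (horizontal axis, log scale), and the dotted line marks 2 kb. At 2 kb the early gains are lowest, at 23.4%, and the kept peaks highest, at 78.7%, while the curves cross at short distances.

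The difference in place was seen among peaks of like significance. The gains were divided at the quartiles of their −log10 q (2.19, 3.23 and 4.63), and kept peaks were placed in the same bands. In the highest band, 27.9% of gains and 80.2% of kept peaks were near (2 kb or less from) a gene end. In the band from 3.23 to 4.63, the shares were 24.1% of gains and 67.4% of kept peaks. In the lowest band they were 18.9% of gains and 43.8% of kept peaks, where kept peaks numbered only 16. Kept peaks spread to far higher values within the top band, so that band is matched least well.

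Peaks found in 1 untreated library and not in the other give a measure of what a list difference without treatment looks like, and the untreated pair was not uniform. Of the 14103 gains, 23.4% lay within 2 kb of a gene end, against 17.7% of the 2628 replicate 1 peaks absent from replicate 2 and 45.2% of the 6067 replicate 2 peaks absent from replicate 1. For H3K4me3 at 0 h the shares were 67.0% of gains, 42.2% of replicate 1 peaks and 77.6% of replicate 2 peaks. For both 48 h replicates they were 48.0%, 24.7% and 60.2%, in the same order. On these 3 measures the gains lay between the peaks that either untreated library had alone. On H3K4me1 at 0 h they lay above both, with 45.0% of gains, 36.1% of replicate 1 peaks and 39.9% of replicate 2 peaks, and on H3K27ac at 0 h below both, with 23.1%, 27.7% and 57.7%. They also lay below both in the untreated Pbrm1 KO list, which held 2.91% of gains, 26.9% of replicate 1 peaks and 23.9% of replicate 2 peaks. Gains are by rule absent from both untreated control lists, and each other set is present in 1 of them. The order in a further untreated PHF10 list is thus no separate trait of the gains. The gains lay above both in 48 h replicate 2 (87.5%, 39.7% and 77.2%) and on ATF3 at 48 h (82.9%, 42.0% and 79.4%).

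Histone marks of untreated cells lay under many of the sites that gained a PHF10 peak. H3K4me3 was called at 0 h under 9442 gains (67.0%, 66.2 to 67.7) and under 99.8% of kept peaks. H3K4me1, which is found at enhancers and promoter flanks, was called under 6346 gains (45.0%, 44.2 to 45.8) and 55.2% of kept peaks. In the bands of like significance its order was not uniform. From 3.23 to 4.63 H3K4me1 lay under 48.7% of gains and 79.7% of kept peaks, with the same order in the 2 lower bands. In the highest band it lay under 57.5% of gains and 52.5% of kept peaks. H3K27ac, which marks active promoters and enhancers, was called under 3254 gains (23.1%, 22.4 to 23.8) and 96.2% of kept peaks. The largest gap between gains and kept peaks among these 3 marks was thus in acetylation. H3K27ac lay under 39.7% of gains with −log10 q of at least 5 at 24 h. When that limit was set in every PHF10 list, so that 24 h peaks over weaker 0 h peaks also counted as gains, the share was 62.1%. Without 0 h replicate 2 the share was 35.6%. The untreated lists behind these shares covered 20.4 Mb for H3K4me3, 8.68 Mb for H3K4me1 and 14.3 Mb for H3K27ac. H3K4me3 peaks were found under 62.5% of the 10804 gains more than 2 kb from a gene end, and under 81.4% of the 3299 nearer ones.

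The other acetylation marks were almost absent from the gains at 0 h. At 48 h H3K14ac, with 35270 peaks, was called under 67.4% of gains and 99.7% of kept peaks. At 0 h, with 3453 peaks, it was called under 1 gain (0.00709%) and under 2998 kept peaks (35.0%). H3K18ac was called under 1.10% of gains at 48 h and 0.801% at 0 h, and under 68.7% of kept peaks at 48 h and 17.2% at 0 h. H3K27ac was called under 7.38% of gains at 48 h and 23.1% at 0 h, and H3K4me1 under 17.4% at 48 h and 45.0% at 0 h. For kept peaks, H3K27ac was called under 91.2% at 48 h and 96.2% at 0 h, and H3K4me1 under 67.6% at 48 h and 55.2% at 0 h. Each mark had 1 library per time, and list lengths differed between times. H3K27ac had 15962 peaks at 48 h and 20507 at 0 h, and H3K4me1 had 12863 at 48 h and 20179 at 0 h. The part of list length in these shares was not tested.

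**Figure D3:**
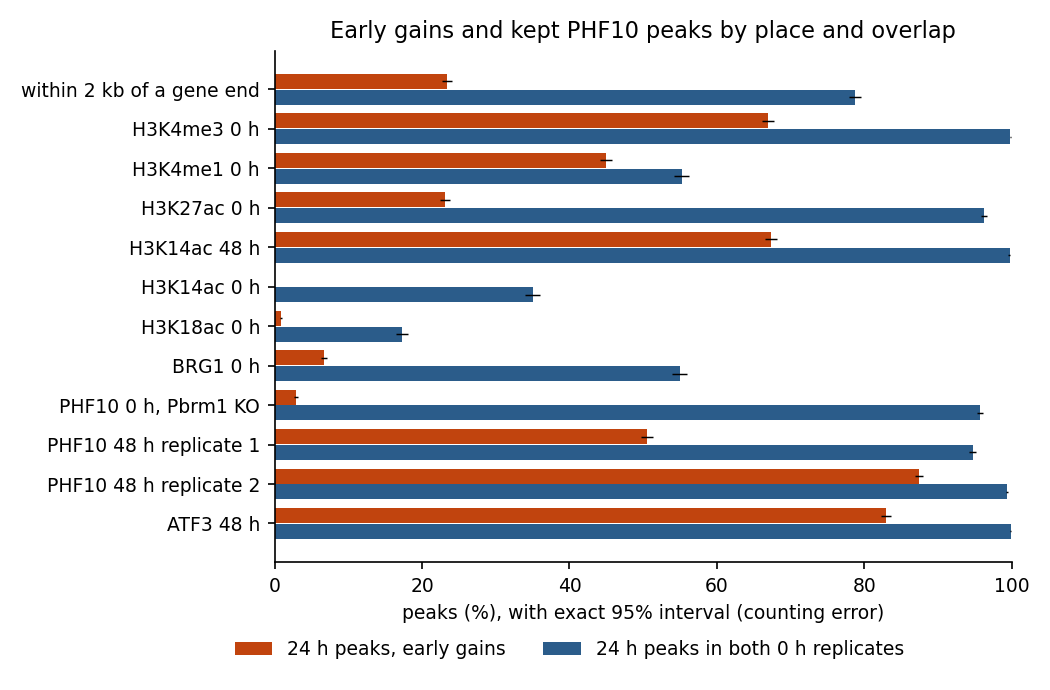
Horizontal bars give the percent of 24 h PHF10 peaks near a gene end or overlapped by the list named, for early gains (upper bar of each pair) and for peaks in both 0 h replicates, with exact 95% intervals. H3K4me3 of untreated cells lies under 67.0% of gains, while BRG1 (6.64%) and PHF10 of Pbrm1 KO cells (2.91%) lie under few.

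BRG1 of untreated cells was called under few gains. Of the gains, 936 (6.64%, 6.23 to 7.06) overlapped one of the 29215 BRG1 peaks at 0 h, against 54.9% of kept peaks. Among peaks of like significance, in the bands used for place, the difference was smaller below the highest band. From 2.19 to 3.23 the shares were 5.19% of gains and 10.5% of kept peaks, and from 3.23 to 4.63 they were 6.92% and 16.3%. In the lowest band they were 5.02% of gains and 0 of 16 kept peaks. The highest band, matched least well, had 9.42% and 59.2%. Near gene ends the shares were 13.9% of gains and 58.8% of kept peaks, and farther away 4.42% of gains and 40.5% of kept peaks. With −log10 q of at least 5 in every PHF10 list the share of gains so defined was 21.3%, and it was 11.3% without 0 h replicate 2. The untreated Pbrm1 KO list, with 11515 PHF10 peaks, covered 2.91% of gains and 95.7% of kept peaks. This untreated library of another genotype also lacked nearly all gains. Gains were defined as absent from untreated control lists and kept peaks as present in both, so these shares give no independent support.

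The bZIP factor ATF3 was called under most gains at 48 h and under few at 24 h. The ATF3 lists of control cells held 45716 peaks at 48 h and 2004 at 24 h. At 48 h ATF3 was called under 82.9% of gains and 99.9% of kept peaks. At 24 h it was called under 146 gains (1.04%, 0.875 to 1.22) and 2.29% of kept peaks. FOSL2, another AP-1 family member, was called at 48 h under 23 gains (0.163%) and 0.595% of kept peaks. ATF3 and PHF10 cells were fixed with the same pair of crosslinkers and FOSL2 cells with formaldehyde only, and the part of crosslinking in these shares was not tested.

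Sorted by the combination of the 3 marks at 0 h, the gains fell into groups that differed in place and in persistence. The largest group, 3904 gains (27.7%), had none of the 3 marks, lay a median of 19101.5 bp from a gene end, and was called in both 48 h replicates for 31.5%. A group of 3856 (27.3%) had H3K4me3 and H3K4me1, with a median distance of 9041.5 bp and 50.8% in both 48 h replicates. A group of 2599 had H3K4me3 alone, with a median distance of 26042 bp, 11.5% within 2 kb of a gene end and 36.9% in both 48 h replicates. Among the 1844 with all 3 marks, 33.9% lay within 2 kb of a gene end and 70.4% were in both 48 h replicates.

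The 1143 gains on H3K4me3 and H3K27ac without H3K4me1 were the group nearest to gene ends. They lay a median of 249 bp from a gene end, 77.9% (75.3 to 80.2) of them within 2 kb, and 78.7% were in both 48 h replicates. BRG1 was called at 0 h under 33.5% of this group. The remaining groups were small, with 490 gains on H3K4me1 alone, 156 on H3K4me1 and H3K27ac and 111 on H3K27ac alone. Groups with H3K27ac and a second mark were thus found at 48 h most often, between 70.4% and 78.7% in both replicates.

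**Figure D4:**
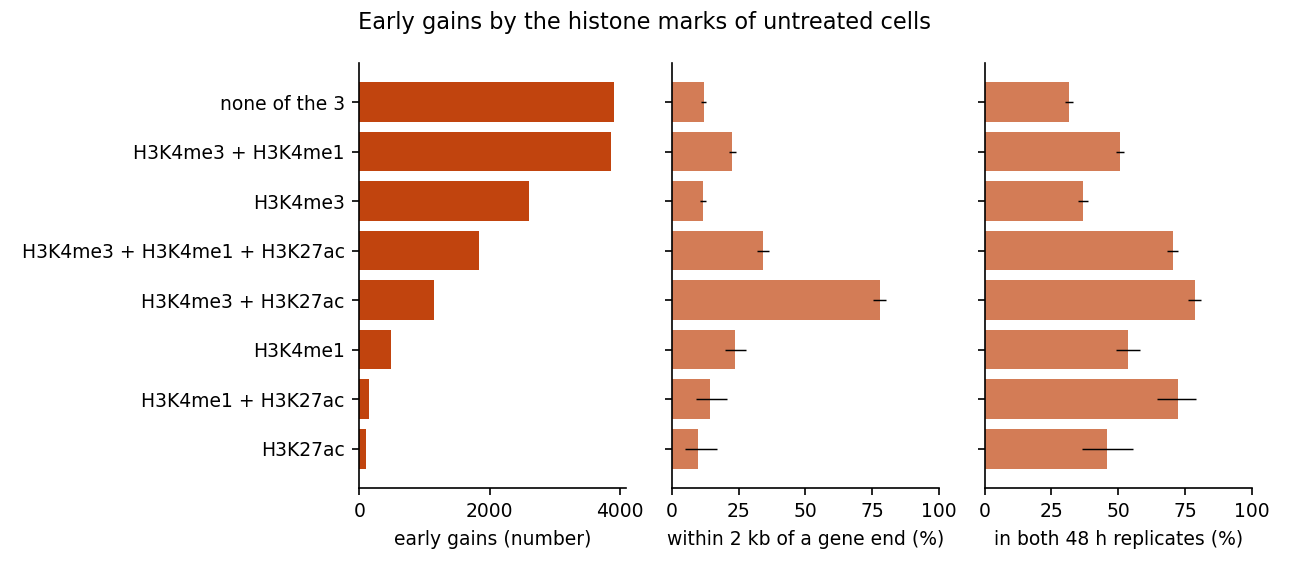
Early gains are grouped by the H3K4me3, H3K4me1 and H3K27ac peaks of untreated cells. The panels give the number of gains, the percent within 2 kb of a gene end and the percent in both 48 h replicates, with exact 95% intervals. The H3K4me3 and H3K27ac group stands out at 77.9% near a gene end.

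The 48 h lists held most of the gains, to very different degrees in the 2 replicates. Gains were called in both 48 h replicates for 6770 (48.0%, 47.2 to 48.8), in replicate 1 only for 358, in replicate 2 only for 5566 and in neither for 1409 (9.99%). Replicate 1 held 50.5% of gains and 94.7% of kept peaks. Replicate 2, whose list covered 83.1 Mb against 30.6 Mb for replicate 1, held 87.5% of gains and 99.4% of kept peaks. Gains found in both replicates lay within 2 kb of a gene end for 32.9% and on H3K27ac at 0 h for 34.9%, against 6.17% and 7.03% of those found in neither. When every PHF10 list was limited to −log10 q of at least 5, 6.74% of the then 5446 gains were in both 48 h replicates, and with that limit on the 24 h peaks alone the share was 52.6%.

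Few of the PHF10 sites that both untreated libraries shared were missing at 24 h. Of 8634 sites called in both 0 h replicates, 46 (0.533%, 0.390 to 0.710) had no 24 h peak. Taken singly, 1657 peaks of 0 h replicate 1 (14.7%) and 1657 of replicate 2 (11.2%) were absent at 24 h. At the level of genes, 11 of 21887 (0.0503%) had a peak in both 0 h lists and none at 24 h. Of the 46 sites, 29 were in neither 48 h list and 11 were in the untreated Pbrm1 KO list. The strongest by mean fold of the 0 h replicates lay in Chl1, a neural cell adhesion molecule, with folds of 13.3 and 51.9 in replicates 1 and 2. Next were sites in Irx4, a homeobox gene (12.8 and 3.92), in Pakap (11.1 and 4.53), on chromosome 9 with no gene within 100 kb (7.38 and 7.99), beside Tex13b (11.1 and 3.96) and in Dach2 (7.42 and 5.61). The 24 h list reduced to its 14731 most significant peaks lacked 813 of the sites. That setting changes list length and significance together, and the cause of the difference was not tested.

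The strongest gains lay inside or beside genes of varied function. The strongest, at chr6:47672699-47673021, lay in the predicted gene Gm40365 with 10.7-fold, and the next in Iqsec3, an exchange factor for ARF GTPases, with 9.33-fold. Both were also called in the untreated Pbrm1 KO list, the only 2 of the 12 strongest that were. Then came gains in Nmi, an interferon-responsive gene (8.82), Stxbp4, a syntaxin-binding protein gene (8.73), and Bcap29, for a protein of the endoplasmic reticulum (8.63). The seventh to twelfth were in or nearest to Gm3095 (8.48), Fbxl17 (8.45), no gene within 100 kb on chromosome 7 (8.36), Lcp2 (8.34), Zfp78 (8.34) and Alg2, a mannosyltransferase gene (8.24), and the sixth was 60190 bp from Naaladl2 (8.54). The Alg2 gain, at chr4:47473906-47474960, is the one that spans the Sec61b promoter.

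All 12 of these gains overlapped H3K4me3 at 0 h and ATF3 at 48 h, 6 overlapped H3K4me1 and 4 overlapped H3K27ac at 0 h. At 48 h, 6 of the 12 were called in both replicates, 1 in replicate 1 only (Nmi), 3 in replicate 2 only and 2 in neither (Naaladl2 and Zfp78). On promoter windows the strongest gains after Sec61b and Krtap3-1 were at Kcna4, a potassium channel gene (7.66), Krtap4-13 (7.56), Hrh2, a histamine receptor gene (7.54), and Krt31, a hair keratin gene (7.42). The Krtap3-1, Krtap4-13 and Krt31 promoters belong to hair keratin and keratin-associated genes of chromosome 11.

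Of 21887 protein-coding genes, 8626 (39.4%) had at least 1 early gain within the gene or 10 kb to either side, and 13535 (61.8%) had a 0 h peak. A gain at a gene with no 0 h peak in either list was found for 2360 genes (10.8%). That number was 758 for gains with −log10 q of at least 5, 938 with the 24 h list reduced to 14731 peaks, and 5173 without 0 h replicate 2. Of the 8626 genes with a gain, 6266 also had a 0 h peak, beside 61.8% of all genes. These are counts of genes, and by the rule no gain overlapped a 0 h peak. Genes with a gain and no 0 h peak had a median span of 16.6 kb, against 23.8 kb for genes with both, 24.4 kb for those with a 0 h peak only and 6.38 kb for those with neither. A single gain was found at 5118 genes, 5 or more at 330 and 10 or more at 39.

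The genes with most gains were long or clustered. Gm37013, Gm38666 and Gm38667, which span the protocadherin cluster of chromosome 18, had 43, 39 and 37 gains, and Pcdha1, Pcdha2, Pcdha3 and Pcdha4 of that cluster had 17 to 19. These genes overlap each other and share gains, so that the 10 genes hold 107 distinct gains. Protocadherin alpha proteins are adhesion molecules best known from neurons. Outside the cluster, Gse1, a coregulator gene, had 28 gains beside 6 and 12 peaks at 0 h, and Macrod1, for an ADP-ribose hydrolase, had 19. By area, the 1 Mb window with most gains held 70 of them on chromosome 10, from base 80000001, beside 43 kept peaks.

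The 12 lists of genes for the pathways of the model were read against these backgrounds. H3K4me3 at a gene end in untreated cells was found for 26 of 27 epithelial adhesion and keratin genes, for 17 of 25 mesenchymal and matrix genes and for 13 of 25 genes of other lineages, beside 63.4% of all genes. Of the genes of other lineages, Alb, Ins2, Cd3e, Ptprc and Hba-a1 had no such peak, while Cd4, Myod1, Gfap and Olig2 had one. The mark was also found for 13 of 18 epithelial transcription and splicing factor genes, with Elf3, Elf5, Ehf, Gata3 and Trp63 lacking it. It was found for 17 of 20 EMT transcription factor genes, all 20 AP-1 and ATF genes and all 27 SWI/SNF subunit genes. Expression was not measured, and these marks alone do not settle the epithelial label.

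Genes of the TGFβ pathway mostly had PHF10 before treatment. Of 25 genes, 23 had a 0 h peak (92.0%, beside 61.8% of all genes). A gain was found at 14 (56.0%, 34.9 to 75.6, beside 39.4% of all genes). Only 1, Tgfb3, had a gain and no 0 h peak (4.0%, beside 10.8%). Tgfb3 encodes a TGFβ ligand, and its strongest gain, 3.37-fold and 3663 bp from the gene, lay on H3K4me3 and H3K27ac of untreated cells. Neither 48 h list held that gain. Smurf1, a ubiquitin ligase gene of the pathway, and Tgfb1 itself had 3 gains each beside 0 h peaks.

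Transcription factor genes of the EMT had gains for 14 of 20 (70.0%, 45.7 to 88.1), and 18 had a 0 h peak (90.0%), beside 39.4% and 61.8% of all genes. The interval for gains excludes the share of all genes, which for the other 11 lists lay inside it, and no test was made. All genes are an unlike background for this list, since most of its members had a 0 h peak. Among all 13535 genes with a 0 h peak, 6266 had a gain. The part of 0 h peaks and of gene span in the share of the EMT list was not tested. Snai2, whose product Slug represses E-cadherin, was not called at 0 h in either replicate. It had a 4.27-fold gain at 24 h and peaks of 3.84- and 2.31-fold in 48 h replicates 1 and 2, and folds of different lists are not on one scale. That gain lies at chr16:14705457-14706067, 91 bp from a gene end, on H3K4me3 and H3K27ac. Klf8, a Krüppel-like factor gene, had a 5.56-fold gain inside the gene, the strongest of the 18 genes named from the lists, on H3K4me3 and H3K4me1. It too was called in both 48 h replicates.

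Mesenchymal and matrix genes had gains for 10 of 25 (40.0%, beside 39.4% of all genes). Of the 25, 4 had a gain and no 0 h peak (16.0%, beside 10.8% of all genes). Col1a2, a chain of type I collagen, was called in neither 0 h list, at 3.22-fold at 24 h, and at 2.72- and 2.81-fold at 48 h. Plau, the urokinase activator of plasminogen, had 2.96-fold at 24 h and was called in both 48 h lists, as was Cd44, a hyaluronan receptor gene, with 3.23-fold. Loxl2, a lysyl oxidase gene for collagen crosslinking, had 4.81-fold at a site 9903 bp outside the gene with none of the 3 marks. Tagln, an actin-binding protein of smooth muscle, was the only one of 20 actin and contractile genes with a gain and no 0 h peak (5.00%), with 3.43-fold, 53 bp from a gene end. Myh9, for nonmuscle myosin heavy chain, had 12 gains beside a single peak in each 0 h list, the most in any list, and was named after its values were seen.

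Integrin and laminin genes had gains for 8 of 16 (50.0%, beside 39.4% of all genes). Of the 16, 3 had a gain and no 0 h peak (18.8%, 4.05 to 45.6, beside 10.8% of all genes). Itgb8, a receptor subunit that activates latent TGFβ, had its gain 86 bp from a gene end, on H3K4me3 and H3K4me1 and without H3K27ac. Lama3 and Lamb3, chains of the basement membrane protein laminin 332, had their strongest gains inside the gene (5.31 and 3.5-fold). The Lama3 gain was in neither 48 h list, and the Lamb3 gain was in replicate 2 only.

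Epithelial genes were also among those with gains, at shares whose intervals include those of all genes. Among 27 adhesion and keratin genes, 16 had a gain (59.3%, 38.8 to 77.6, beside 39.4% of all genes) and 4 had one and no 0 h peak (14.8%, 4.19 to 33.7, beside 10.8%). Krt18 and Krt19 encode simple epithelial keratins, and their gains had 4.19- and 3.79-fold, both on H3K27ac. Cldn4 and Cldn1 encode tight junction claudins, with 3.29- and 3.01-fold, and Cldn1 was the only gene of the list with no H3K4me3 at a gene end. All 4 gains lay within 490 bp of a gene end and were in both 48 h lists. Of 18 epithelial transcription and splicing factor genes, 5 had a gain (27.8%). Among the 18, only Grhl3, a Grainyhead-like factor of epidermis, had a gain and no 0 h peak (5.56%).

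The remaining lists gave further shares of the same kind. Over all genes, 39.4% had a gain, 61.8% had a 0 h peak and 10.8% had a gain and no 0 h peak. AP-1 and ATF genes had a gain for 10 of 20, and only Atf6, a sensor of stress in the endoplasmic reticulum, had no 0 h peak (5.00%), with 4 gains of up to 5.53-fold. Hippo pathway genes had a gain for 12 of 22. Among the 22, only Amot, whose product binds YAP, had a gain and no 0 h peak (4.55%), with up to 4.38-fold. All 27 SWI/SNF subunit genes had a 0 h peak, so none could count as newly reached, and 14 had a gain. Housekeeping genes had a gain without a 0 h peak for 3 of 20 (15.0%: Pgk1, Gusb and Psmb2). Genes of other lineages had one for 8 of 25 (32%, 14.9 to 53.5), among them Gfap of astrocytes, Myh6 of heart muscle and Pecam1 of endothelium. Only 10 genes of that list had a 0 h peak, so more of them could count.

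Across the lists, shares of genes newly reached lay from 0 to 32%, around the 10.8% of all genes. This share is limited by how many genes of a list lacked a 0 h peak, so the lists cannot be ranked by it. In the EMT list only Snai2 and Klf8 lacked one, and both had a gain. Of the 18 genes named from the lists, 14 had their strongest gain called in both 48 h replicates, 2 in replicate 2 only (Atf6 and Lamb3) and 2 in neither (Lama3 and Tgfb3). Their gains lay within 2 kb of a gene end for 10 and on H3K4me3 at 0 h for 14. None of the 18 was called in the untreated Pbrm1 KO list. Many were weak in significance, and the lowest −log10 q of the 18 were 1.803 at Plau and 1.81 at Cd44. Next came 2.08 at Cldn1, 2.21 at Col1a2, 2.49 at Grhl3 and 2.57 at Tgfb3. Taking the strongest gain by fold of each gene, only those of Klf8 (7.14), Atf6 (8.08) and Krt18 (7.11) passed the limit of 5. Snai2 had 4.96.

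**Figure D5:**
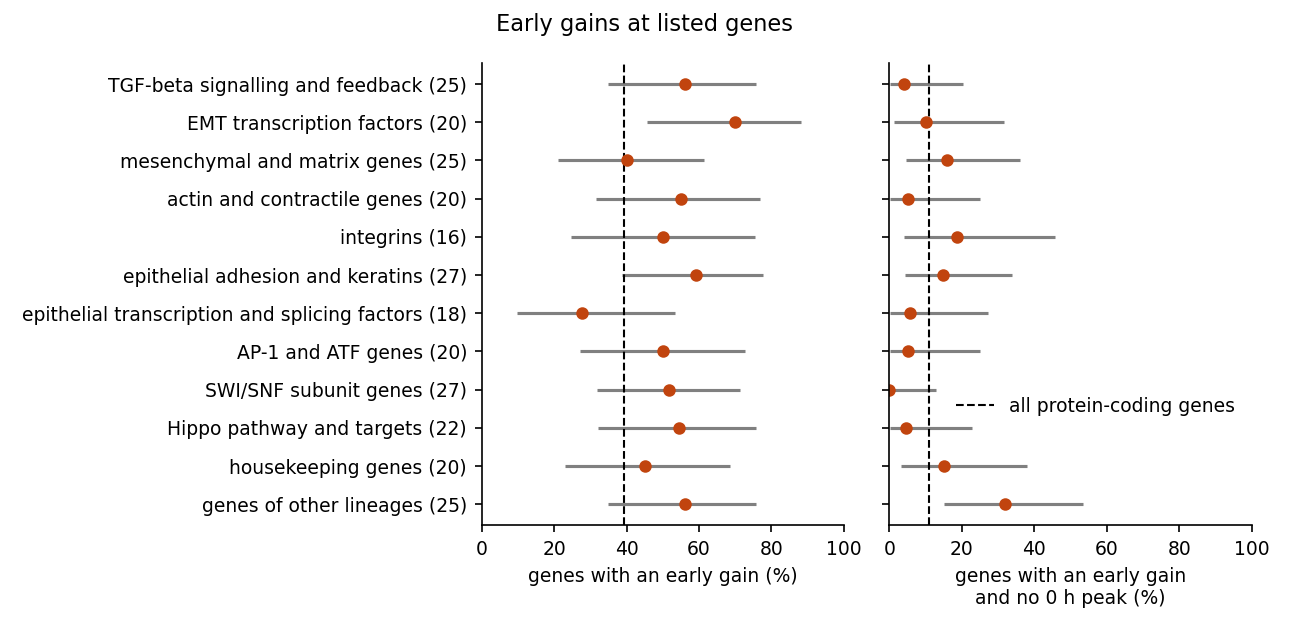
Points give the percent of genes of each list (number of genes in brackets) with an early gain, left, and with a gain and no 0 h peak, right, with exact 95% intervals. Dashed lines mark all protein-coding genes (39.4% and 10.8%), and the intervals include them except for the EMT transcription factors on the left and the genes of other lineages on the right.

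Genes of the proteins profiled were covered before treatment. Phf10 had 2 peaks at 24 h and 1 and 2 in 0 h replicates 1 and 2, and Pbrm1 had 3 at 24 h and 2 and 3 at 0 h, with no gain at either. Smarca4 had 3 at 24 h, of which 2 were gains (up to 3.5-fold), and 1 in each 0 h replicate. Atf3 had 3 at 24 h with 1 gain of 3.65-fold, and 1 in each 0 h replicate. Fosl2 had 3 at 24 h with 1 gain of 3.82-fold, and 2 in each 0 h replicate. Fosb had 5 at 24 h with 3 gains of up to 4.19-fold, against 0 and 3 in 0 h replicates 1 and 2.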

How the data were processed

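Peak lists of NMuMG ChIP-seq libraries were used as deposited, 1 per library. The submitters' processing notes list, with no role or setting for any, deepTools 3.5.1, Partek 11.0.24.0325, MACS3 3.0.0a7, fastp 0.19.5 and Bowtie2 2.3.3, and the build mm10. The labels' protocols give dual crosslinking (disuccinimidyl glutarate, then formaldehyde) for PHF10, BRG1 and ATF3, and formaldehyde alone for the rest. The deposited pileup signal was not used. The deposited −log10 p and q values ranked and filtered peaks, and the deposited fold, the authors' ratio of a peak's ChIP to its input, was used within a list. Depth was not given, and the 15 inputs were not used here.

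Python 3.11.15 with pandas 2.3.3, numpy 2.4.6 and scipy 1.17.1 classified peaks by an overlap of 1 bp, and the code was tested on simulated peaks. Whether the files' starts count from 0 or 1 is not given, so positions may be off by 1 base. Genes (21887, without strand) and promoter windows came from RefSeq tables of GRCm38.p6, to which mm10 corresponds. A gene held peaks within its span and 10 kb. Named genes were list members with a gain and no 0 h peak (up to 24, ranked by fold, housekeeping genes and other lineages aside), the 12 strongest gains, the 10 genes with most gains, the 6 strongest sites absent at 24 h, and the genes of the proteins profiled. Some genes are not reported here. Members, lists and rules were chosen with earlier results of these data known. Alternatives changed thresholds, list lengths, the overlap rule, merging, gene windows and the libraries used.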

Additional observations from a re-analysis of the deposited data

How the results depend on the processing

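No paired analysis was possible because the 24 h group has only a replicate 1 and no result comes from a test. The number and the makeup of the gains moved with thresholds and list length. For 24 h peaks with −log10 q of at least 5 there were 2842 gains (21.6% of the list), 52.6% of them in both 48 h replicates, 29.0% within 2 kb of a gene end, 87.8% on H3K4me3, 58.4% on H3K4me1, 39.7% on H3K27ac and 10.2% on BRG1, with 758 genes newly reached and 1115 sites of both 0 h replicates absent. With that limit in every PHF10 list the same shares were 41.4% for 5446 gains, 6.74%, 46.8%, 93.4%, 55.3%, 62.1% and 21.3%. With the 24 h list reduced to 14731 peaks they were 25.1% for 3695 gains, 51.1%, 28.0%, 86.6%, 57.4%, 37.1% and 9.17%, with 938 genes and 813 sites. With 3 lists of 11285 peaks they were 20.6% for 2321 gains, 58.0%, 34.4%, 91.3%, 58.8%, 48.2% and 13.0%, with 784 genes and 1156 sites.

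Smaller moves, beyond the counting interval, came from other settings. A fold of at least 3 at 24 h gave 48.5% of the list as gains, 46.4% in both 48 h replicates, 22.6% near gene ends and 67.9% on H3K4me3. A −log10 q of at least 1.3 in the PHF10 lists gave 47.0% in both 48 h replicates, 69.1% on H3K4me3, 46.3% on H3K4me1 and 24.1% on H3K27ac. An overlap of 50% gave 44.5% in both 48 h replicates and 5.37% on BRG1. Sharing within 1 kb gave 51.2% in both 48 h replicates, 67.9% on H3K4me3, 46.0% on H3K4me1 and 9.75% on BRG1. Transcription starts alone gave 16.2% near a start.

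Leaving out 0 h replicate 1 or 2 gave 53.9% to 65.9% of the list as gains (15084 and 18463), 24.4% to 31.7% near gene ends, 68.9% to 74.3% on H3K4me3, 46.4% to 47.6% on H3K4me1, 25.9% to 35.6% on H3K27ac, 6.63% to 11.3% on BRG1 and 2852 to 5173 genes. The lone 0 h list then had 1657 peaks absent at 24 h in either case. The share found at 48 h ran from 48.8% to 87.5% over the 4 libraries left out in turn. Merging peaks within 1 kb and using all sequences left each of the 10 results within its interval or within 1.5 times its count. The cause of these moves was not tested. Depth is unknown, so it cannot be told how many gains lie below the threshold at 0 h.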
